A study of Mus musculus with 8 samples.

Results

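The mitochondrial genome of the mouse encodes 37 of the 53647 gene identifiers in the deposited count files: 13 protein-coding genes, 2 ribosomal RNA (rRNA) genes and 22 transfer RNA (tRNA) genes. They were taken as every identifier placed on chromosome M, whatever its level, and all 37 carried symbols beginning with mt-. RNA was sequenced in 8 libraries of bone marrow cells sorted as Lin- CD127+, that is, without markers of mature lineages and with the interleukin 7 receptor alpha chain on the surface. The 4 wild-type libraries (WT1 to WT4) have the genotype label Trerf1 +/+. The 4 knockout libraries (KO1 to KO4) have the label Tref1 -/-, which spells the gene without its second r. No treatment, time, age or strain is labelled, and nothing in the labels says that each library is another animal, so the spread behind every p-value is that between libraries and may be technical. The comparison asks whether loss of Trerf1, a zinc-finger transcriptional regulator, went with a different level of mitochondrially encoded RNA.

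Mitochondrial DNA is transcribed from both strands into long precursors that carry rRNA, messenger RNA and tRNA together. The tRNAs lie between the other genes, and cutting them out releases the messenger RNAs and rRNAs, most of which are then polyadenylated. All 13 proteins are core subunits of oxidative phosphorylation: the mt-Nd genes belong to complex I, mt-Cytb to complex III, the mt-Co genes to complex IV and the mt-Atp genes to the ATP synthase, complex V. The rRNAs mt-Rnr1 and mt-Rnr2 belong to the small and the large subunit of the mitochondrial ribosome. Pieces of mitochondrial DNA have also been copied into nuclear chromosomes, where they are annotated as pseudogenes.

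Trerf1 itself stood at 28.9, 33.3, 28.4 and 21.3 CPM (reads per 1e6 reads on all genes) in the wild-type libraries in order of their number and at 13.2, 12.6, 11.9 and 22.1 CPM in the knockout libraries, so the library labelled KO4 was at the level of WT4. Il7r, which encodes CD127, ranged from 268 to 407 CPM over the 8 libraries, and 8 lymphoid progenitor markers that include it summed to 6193 to 8262 CPM in WT and 6330 to 9858 CPM in KO. Total counts ranged from 31109744 to 73414626, and WT2, WT4 and KO4 were the 3 deepest. Xist, expressed by female cells, ran from 443 to 765 CPM in 5 libraries (WT1, WT4, KO1, KO3, KO4) and did not exceed 0.643 CPM in the other 3, so sex was not matched between the groups.

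The first thing the count files show is a gap in the middle of the mitochondrial map. CPM here are featureCounts reads without further scaling, and levels of different genes are compared as CPM per kilobase of gene length. Running from mt-Co2 through mt-Atp8, mt-Atp6, mt-Co3 and mt-Nd3 to mt-Nd4l, 6 neighbouring protein-coding genes had mean levels of 0.112 to 3.39 CPM per kilobase. The other 7 protein-coding genes and both rRNA genes had mean levels of 183 to 2089 CPM per kilobase and ranged from 101 to 2737 CPM in single libraries, against 0 to 3.11 CPM for the 6. The 6 genes together held 150 to 333 counts in a library, which was 0.0536% to 0.111% of its mitochondrial counts.

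In the second deposited quantification 4 of the 6 genes, mt-Co2, mt-Atp8, mt-Atp6 and mt-Co3, had at least 225 CPM in every library. These are RSEM expected counts, in which a fragment that matches several transcripts is divided among them. As CPM of expected counts, mt-Co2, which encodes a core subunit of cytochrome c oxidase, had 1431, 1335, 1517 and 1244 in WT and 1224, 1316, 1473 and 1062 in KO. Its featureCounts values were 2.95, 1.09, 0.932 and 0.79 CPM in WT and 1.22, 0.853, 1.21 and 0.767 CPM in KO. The ranges of expected counts over the 8 libraries were 225 to 603 CPM for mt-Atp8, 739 to 1071 CPM for mt-Atp6 and 443 to 1280 CPM for mt-Co3. For mt-Nd3 and mt-Nd4l, 2 small complex I subunits, they were lower, at 0 to 37.3 CPM and 2.35 to 39.6 CPM.

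The stretch that holds the 6 genes is also annotated on chromosome 1. Of the 11 nuclear pseudogenes that aligned to a mitochondrial gene over at least 100 bases at 95% identity or more, 7 lie side by side on the minus strand of chr1:24650616-24655278, in the coordinates of the count files (GRCm39 by the annotation named in their headers). Gm28661, Gm10925, Gm28437 and Gm10222 match mt-Co2, mt-Atp6, mt-Co3 and mt-Nd4l base for base over 99.0% to 99.9% of the mitochondrial gene. Gm28438 differs from mt-Nd3 at 1 of 345 bases. Gm29216 covers the last 31.3% of mt-Co1 with 1 difference, A1066T, and Gm28439 covers the first 63.6% of mt-Nd4 with none. Substitutions give the mitochondrial base, its position from the first base of the mitochondrial gene, and the base of the nuclear copy. The other 4 pseudogenes, Gm13339, Gm13340 and Gm13341 on chromosome 2 and Gm4076 on chromosome 13, have 95.2% to 97.6% identity.

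The sequences below show how closely the annotated nuclear copies follow the mitochondrial genes and where their alignment begins and ends. Only annotated pseudogene transcripts were aligned, so these edges are not shown to be those of the copied stretch on chromosome 1. They come from the GENCODE M21 transcripts (GRCm38), in which all 37 mitochondrial genes have the start, end and strand of the count files. The first pair is bases 1 to 60 of mt-Nd3 (chrM:9459-9518, plus strand) and of its copy, with the single differing base (T3C) in capitals:
mt-Nd3: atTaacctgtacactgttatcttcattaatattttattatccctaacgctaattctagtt
Gm28438: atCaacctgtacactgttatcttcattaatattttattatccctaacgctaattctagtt
The edges follow, with the bases that align with the annotated copy in capitals, at bases 1033 to 1092 of mt-Co1 (chrM:6360-6419, plus strand) and 847 to 906 of mt-Nd4 (chrM:11013-11072, plus strand):
mt-Co1: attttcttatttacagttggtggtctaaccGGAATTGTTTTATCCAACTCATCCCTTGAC
mt-Nd4: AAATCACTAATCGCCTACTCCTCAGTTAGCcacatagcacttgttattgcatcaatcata

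mt-Atp8 and mt-Atp6, which encode the 2 mitochondrial subunits of complex V, are read from 1 messenger RNA in different reading frames, and share 43 bases. Those bases are shown in capitals at the end of mt-Atp8 (chrM:7910-7969) and the start of mt-Atp6 (chrM:7927-7986), both on the plus strand, because a read within them overlaps 2 genes:
mt-Atp8: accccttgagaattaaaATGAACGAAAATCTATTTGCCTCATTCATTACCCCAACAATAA
mt-Atp6: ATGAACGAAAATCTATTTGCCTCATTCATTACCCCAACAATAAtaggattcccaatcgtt
No annotated nuclear gene matched mt-Atp8, whose place on chromosome 1 would fall between Gm10925 and Gm28661. Other genes overlap by 14 bases (mt-Nd5 and mt-Nd6, on opposite strands), 7 bases (mt-Nd4l and mt-Nd4) or at most 3 bases.

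**Figure D1:**
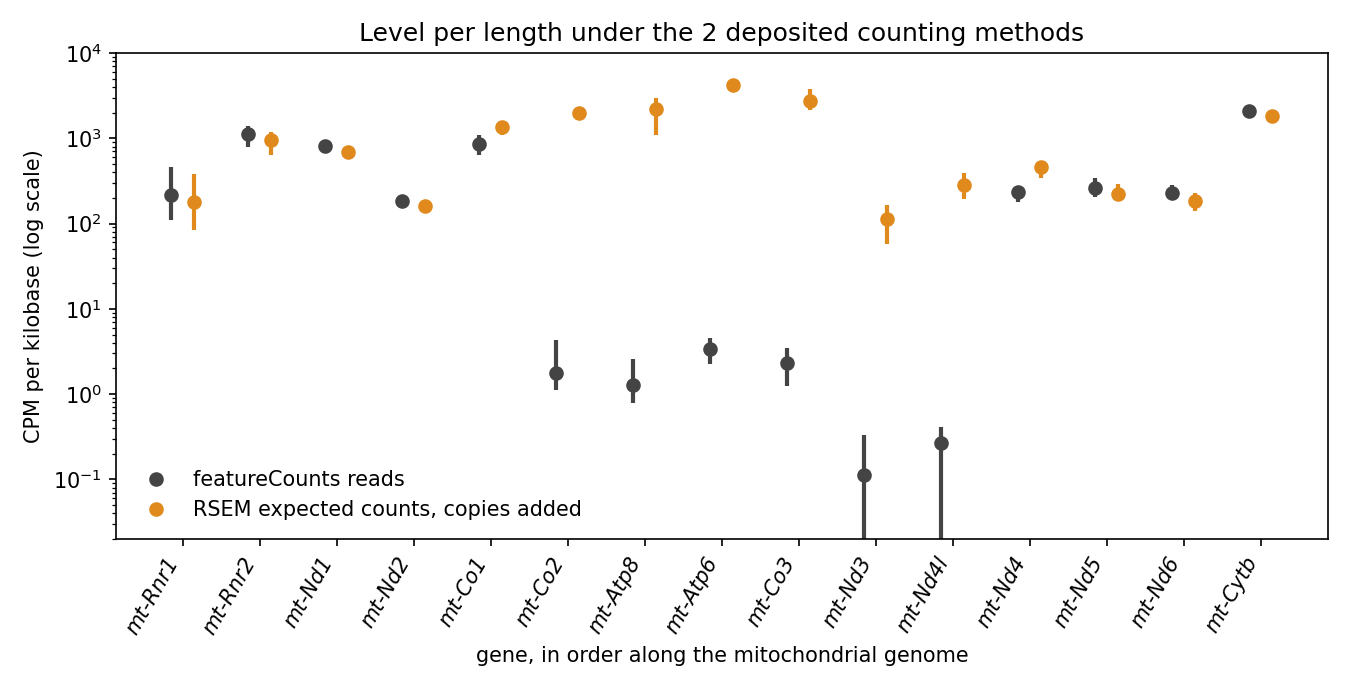
Mean level per gene length (CPM per kilobase, log scale; points) with the lowest and highest of the 8 libraries (bars) for the 2 rRNA and 13 protein-coding genes in map order, by featureCounts reads and by RSEM expected counts with the 7 chromosome 1 copies added to their mitochondrial genes; bars that reach the lower edge include libraries at 0. From mt-Co2 to mt-Nd4l the reads lie between 0.112 and 3.39, while expected counts lie between 112 and 4169.

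Leaving aside mt-Atp8, the share of a gene outside the annotated chromosome 1 copy went with how many reads it was given per expected count. Over all genes, reads summed to 3.67 to 4 times the expected counts of a library, and each gene's ratio is given here as a percentage of its library's, after adding the expected counts of the copies to their mitochondrial genes. The 7 genes with no part in the copy, mt-Rnr1, mt-Rnr2, mt-Nd1, mt-Nd2, mt-Nd5, mt-Nd6 and mt-Cytb, had means of 113% to 127%. For mt-Co1, with 68.7% of its length outside the copy, the mean was 62.3% (58.4% to 70.5% over libraries). For mt-Nd4, with 36.4% outside, it was 51.0% (46.8% to 54.9%). The other 6 genes had means of 0.0601% to 0.121%. Among them mt-Atp8 had the lowest mean, 0.0601%, although no annotated copy matched it. Under featureCounts defaults a read that maps to several places is left out, and whether this accounts for the gap was not tested, since the alignments were not analysed here.

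**Figure D2:**
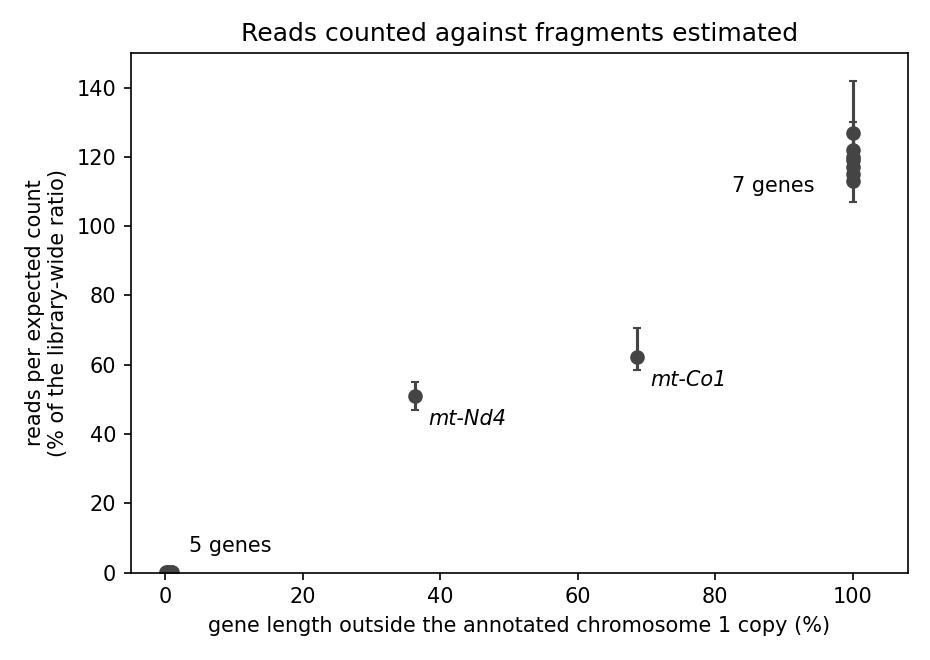
Reads per expected count of each gene, as a percentage of the ratio over all genes of the same library (mean and range of 8 libraries), against the percentage of the gene's length outside the annotated chromosome 1 copy; mt-Atp8, which has no annotated copy, is not drawn. The 5 genes at the left have means of 0.0803% to 0.121%, mt-Nd4 and mt-Co1 have 51.0% and 62.3%, and the 7 genes at the right have 113% to 127%.

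The nuclear copies received few reads but many expected counts. Gm10925 had 2.14 to 4.77 CPM by featureCounts and 1343 to 2510 CPM by RSEM, and Gm28437 had 1.22 to 2.98 CPM against 1064 to 1865 CPM. RSEM put 0.322% to 0.519% of all expected counts on the 7 copies. Its division between a gene and an identical copy cannot be resolved by sequence: the copy took 55.6% to 76.9% of the summed mt-Atp6 and Gm10925 values, and 0.00249% to 8.89% for mt-Co2 and Gm28661. Expected counts below therefore have the 7 copies added to their mitochondrial genes. RNA from the mitochondrial gene and from its copy cannot be told apart in these sums.

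For mt-Nd3 and mt-Nd4l most featureCounts reads of the pair were on the copy in all 8 libraries. Gm10222 had 73.1% to 100% of the reads of the mt-Nd4l pair, though at most 0.535 CPM. mt-Nd3 on chromosome M had 0 counts in WT3, KO1 and KO2 and at most 6 counts elsewhere, or up to 0.116 CPM; a count of 0 allows up to 0.0964 CPM in the shallowest library. Gm28438, with the base C at the position of T3C, had 8.77, 12.1, 9.0 and 10.6 CPM in WT and 7.74, 10.5, 9.11 and 13 CPM in KO. All 8 libraries thus had 98.7% or more of the reads of the pair on the copy. Which base the mitochondrial RNA of these cells carries there was not tested, since the strain is not labelled and the reads were not analysed here.

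The order of levels per length differed between the countings. The library kit primes cDNA at poly(A) tails, so these are levels of RNA that was primed. Whether the genes differ in this was not tested, so the order may not be that of RNA amounts in the cells. By featureCounts mt-Cytb led with 2089 ± 240 CPM per kilobase (SD, n = 8), ahead of mt-Rnr2 at 1122 ± 211, mt-Co1 at 855 ± 140 and mt-Nd1 at 812 ± 83.2, the last 2 within their spread of each other. By expected counts as deposited, mt-Atp8 led with 2222 ± 613 CPM per kilobase, ahead of mt-Co2 at 1937 ± 218 and mt-Cytb at 1825 ± 213, and mt-Atp6 had 1295 ± 204. By expected counts with the copies added, mt-Atp6 led with 4169 ± 431 CPM per kilobase. mt-Co3 at 2773 ± 534, mt-Atp8 at 2222 ± 613, mt-Co2 at 2003 ± 188 and mt-Cytb at 1825 ± 213 followed, each overlapping the next within 1 SD. mt-Co1 came after them at 1367 ± 154, then mt-Rnr2 at 942 ± 195 and mt-Nd1 at 682. The lower group ran from mt-Nd4 at 463 ± 59.9 through mt-Nd4l, mt-Nd5, mt-Nd6, mt-Rnr1 and mt-Nd2 to mt-Nd3 at 112. The 6 genes of the gap held 43.9% to 49.9% of the mitochondrial expected counts.

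Mitochondrial genes took a small share of each library, and the share did not differ detectably between the genotypes. They held 0.844%, 0.793%, 0.775% and 0.715% of all featureCounts reads in the WT libraries, in order of their number as everywhere here, and 0.714%, 0.703%, 0.79% and 0.738% in the KO libraries. The groups overlapped, and the means were 0.782% ± 0.0531 (SD, n = 4) in WT and 0.736% ± 0.0385 in KO, a difference of -0.0456 percentage points (two-sided exact permutation test over 70 assignments, p = 0.229; the smallest p this design allows is 0.0286). With expected counts and the copies added, the share was 1.52% ± 0.125 in WT and 1.43% ± 0.125 in KO (exact p = 0.286, n = 4). In bulk RNA a lower share from fewer cells of a type cannot be told apart from less RNA per cell.

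By class, the protein-coding genes held 0.577%, 0.56%, 0.571% and 0.557% of reads in WT and 0.489%, 0.512%, 0.613% and 0.6% in KO. The KO libraries lay on both sides of all 4 WT libraries, KO1 and KO2 below and KO3 and KO4 above, with means of 0.566% ± 0.00935 and 0.553% ± 0.0623 (exact permutation p = 0.629, adjusted over the 3 classes 0.686, n = 4). The rRNA genes held 0.266%, 0.232%, 0.203% and 0.157% in WT and 0.225%, 0.19%, 0.175% and 0.137% in KO, with overlapping groups (means 0.215% ± 0.046 and 0.182% ± 0.0366, exact permutation p = 0.314, adjusted p = 0.686, n = 4). The tRNA genes held 0.00089% ± 9.87e-05 in WT and 0.000954% ± 0.000275 in KO (exact permutation p = 0.686, n = 4). The ratio of rRNA to protein-coding reads was 0.461, 0.414, 0.356 and 0.283 in WT and 0.46, 0.372, 0.286 and 0.228 in KO, and the groups overlapped (exact permutation p = 0.571, n = 4). Both the rRNA share and this ratio fell in the order of the library number, from WT1 to WT4 and from KO1 to KO4. The labels do not say whether same-numbered libraries are pairs, and the tests here take them as unpaired.

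**Figure D3:**
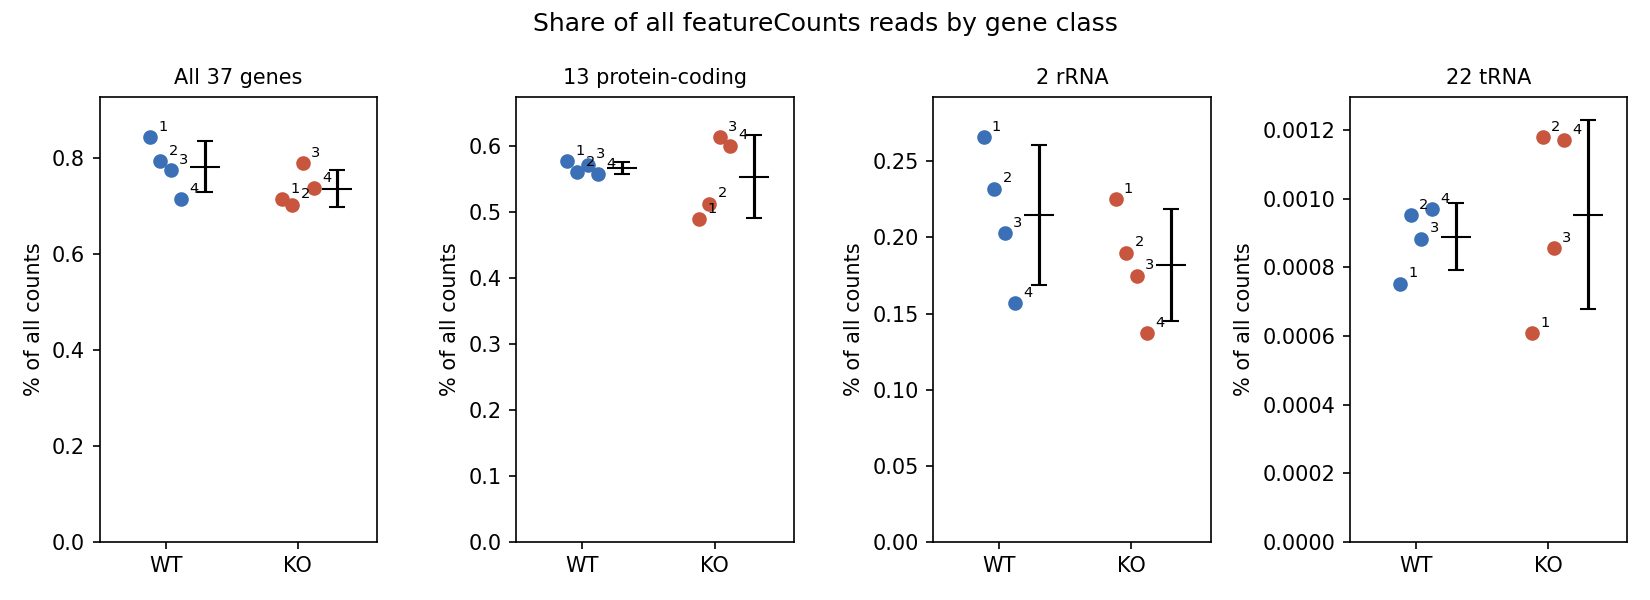
Share of all featureCounts reads (%) on all 37 mitochondrial genes and on the protein-coding, rRNA and tRNA genes, for each WT and KO library (points, with the library number) and as mean ± SD (n = 4). WT and KO libraries overlap in every class; for the protein-coding genes the 4 WT libraries lie between 0.557 and 0.577, with KO1 and KO2 below and KO3 and KO4 above.

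Gene by gene, none of the mitochondrial genes passed the test. The quasi-likelihood test of edgeR, with p adjusted by Benjamini-Hochberg, was run on 16352 genes and called 0 of the 18 mitochondrial genes that passed its filter on low counts (adjusted p = 0.999 for each). The background is that 0% of the 16352 genes were called in either direction. Below an unadjusted p of 0.05 there were 0 mitochondrial genes and 322 genes in all (1.97%). Of the other 19 members, 16 were tRNA genes and 3 were mt-Atp8, mt-Nd3 and mt-Nd4l, at 0.521 CPM or less. Point estimates were lower in KO for 8 of the 10 fitted protein-coding genes, with a median log2 fold change of -0.17. Over all genes tested the median was 0.01, and 48.3% were lower. The 10 included mt-Co2, mt-Atp6 and mt-Co3, genes of the gap with at most 141 counts in any library. Their estimates were -0.48, -0.16 and -0.29, so the median of -0.17 rests in part on genes of few reads. No mitochondrial gene had every KO library below or above every WT library, whereas 0.581% of all genes were below and 0.526% above.

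With expected counts and the copies added, all 13 protein-coding genes could be fitted, and edgeR again called none of 16 mitochondrial genes or 13624 genes in all (adjusted p = 1, background 0%). The estimate was lower in KO for 12 of the 13, with a median log2 fold change of -0.08, beside 50.9% of all genes lower and an all-gene median of -0.00. The library labelled KO4, whose Trerf1 was at the level of WT4, was the lowest of all libraries for mt-Co2, mt-Atp8, mt-Co3, mt-Nd3, mt-Nd4l and mt-Nd6. How far the estimates rest on it was not tested, since no fit on this counting left out a library. Mitochondrial genes share precursors and were read in the same libraries, so in neither counting are their directions independent of each other. An unadjusted p under 0.05 was reached by 2 of the 16 mitochondrial genes, mt-Nd4l and mt-Nd6, and by 256 of all genes (1.88%). Again none had groups that did not overlap, against 0.602% of all genes with every KO library below every WT library.

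**Figure D4:**
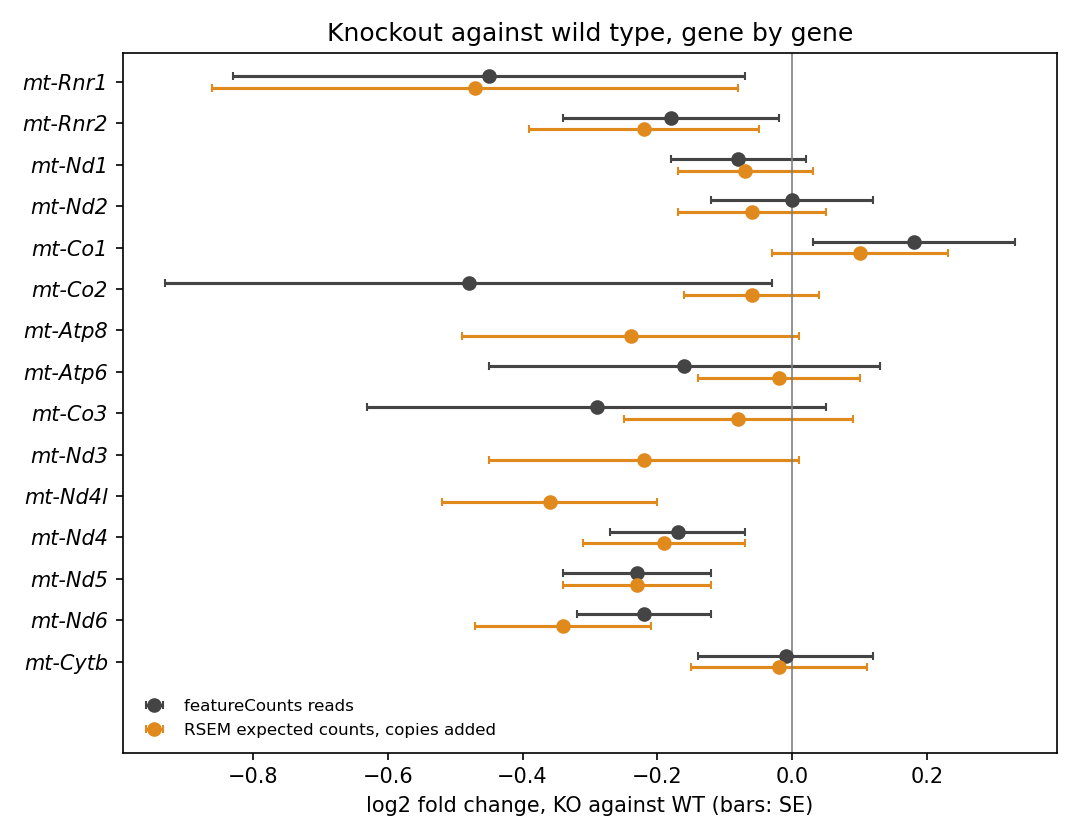
log2 fold change of KO against WT with its SE for the 2 rRNA and 13 protein-coding genes in map order, from edgeR on featureCounts reads and on expected counts with the copies added; mt-Atp8, mt-Nd3 and mt-Nd4l have no value from reads because they were under the filter. Estimates run from -0.48 to 0.18, most lie left of 0, and none passed the test.

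Among the 9 abundant genes the 2 rRNA genes varied most, with a coefficient of variation over the 8 libraries of 52.7% for mt-Rnr1 and 18.8% for mt-Rnr2, against 10.3% to 16.3% for the 7 protein-coding genes. mt-Rnr1 had 439, 169, 221 and 139 CPM in WT and 290, 151, 149 and 105 CPM in KO, so WT1 and KO1 were the highest of their groups and the range over libraries was 4.2-fold. Its log2 fold change was -0.45 ± 0.38 (SE; edgeR quasi-likelihood, adjusted p = 0.999), and it was 0.01 without WT1 and -0.81 without KO1. The summed level of 12 erythroid marker genes, among them the globin genes and Klf1, also had its group maxima in WT1 and KO1, at 1092, 444, 167 and 101 CPM in WT and 502, 289, 117 and 125 CPM in KO. All 12 were found and none was at 0 in all libraries. The summed levels of 8 T cell markers (WT1 312 and KO1 406 CPM) and 6 mature B cell markers (WT1 139 and KO1 154 CPM) had their group maxima in the same libraries, and the part of these cells in the mt-Rnr1 values was not tested.

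mt-Rnr2 had 2221, 2149, 1812 and 1435 CPM in WT and 1960, 1751, 1605 and 1263 CPM in KO. WT4 and the library labelled KO4 were the lowest of their groups, and the groups overlapped (log2 fold change -0.18 ± 0.16). The ratio of mt-Rnr2 to mt-Rnr1 reads, on the log2 scale, was 2.34, 3.67, 3.04 and 3.37 in WT and 2.75, 3.53, 3.43 and 3.59 in KO (exact permutation p = 0.6, n = 4). Both are transcribed together from the same strand, with mt-Rnr1 first. Reads of mt-Rnr2 exceeded those of mt-Rnr1 by 5.06-fold in WT1 to 12.7-fold in WT2.

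Complex I, the NADH dehydrogenase, has 7 mitochondrial subunits, which summed to 1988 ± 190 CPM in WT and 1773 ± 142 in KO by featureCounts (SD, n = 4). mt-Nd6, the only protein-coding gene on the minus strand, had the smallest p: 134, 141, 146 and 101 CPM in WT and 107, 106, 120 and 105 CPM in KO. All 4 KO libraries lay below 3 of the WT libraries and above WT4, and the log2 fold change was -0.22 ± 0.10 (edgeR, unadjusted p = 0.057, adjusted p = 0.999). Expected counts gave 113, 117, 118 and 80.5 CPM in WT and 86.0, 76.5, 96.3 and 73.6 CPM in KO, with a log2 fold change of -0.34 ± 0.13 (edgeR, unadjusted p = 0.022, adjusted p = 1). The library kit does not mark strand, so reads of mt-Nd6 cannot be told apart from reads of the opposite strand.

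mt-Nd5, a proton-pumping subunit whose 3' end overlaps that of mt-Nd6, had 485, 620, 527 and 418 CPM in WT and 378, 412, 468 and 454 CPM in KO. KO1 and KO2 lay below all WT libraries, and the log2 fold change was -0.23 ± 0.11 (edgeR, unadjusted p = 0.0762, adjusted p = 0.999). mt-Nd4 had 344, 344, 363 and 335 CPM in WT and 293, 250, 342 and 320 CPM in KO, so 3 KO libraries were below all WT libraries (log2 fold change -0.17 ± 0.10). mt-Nd4l, which shares 7 bases with mt-Nd4, had 102, 115, 87.3 and 73.6 CPM of expected counts in WT and 83.8, 64.9, 83.9 and 57.1 CPM in KO. Its log2 fold change on that scale was -0.36 ± 0.16 (edgeR, unadjusted p = 0.0403, adjusted p = 1), but 0.43 before the copies were added, and on reads 0.13 without a filter and 0.15 with DESeq2. Adding the copies was chosen after the data were seen, and on that scale KO2 and the library labelled KO4 were below all WT libraries.

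The 2 complex I genes next to the rRNAs were flatter. mt-Nd1 had 800, 926, 812 and 692 CPM in WT and 743, 726, 825 and 692 CPM in KO (log2 fold change -0.08 ± 0.10). mt-Nd2 had 176, 175, 203 and 210 CPM in WT and 176, 157, 217 and 202 CPM in KO (log2 fold change 0.00 ± 0.12), the smallest difference of all fitted mitochondrial genes. mt-Nd3 had 41.9, 57.4, 37.3 and 32.0 CPM of expected counts in WT and 41.6, 41.8, 39.6 and 20.3 CPM in KO, where the library labelled KO4 stood apart from its group (log2 fold change -0.22 ± 0.23).

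mt-Cytb, the cytochrome b of complex III, was the most abundant protein-coding gene by reads. It had 2688, 2113, 2430 and 2445 CPM in WT and 2199, 1968, 2737 and 2542 CPM in KO. The groups lay over each other, with a log2 fold change of -0.01 ± 0.13 by reads and -0.02 ± 0.13 by expected counts.

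In complex IV, cytochrome c oxidase, mt-Co1 was the only protein-coding gene with a higher estimate in KO in both countings. It had 1133, 1279, 1223 and 1362 CPM in WT and 987, 1493, 1419 and 1678 CPM in KO, so 3 KO libraries were above all WT libraries and KO1 below them (log2 fold change 0.18 ± 0.15, edgeR adjusted p = 0.999). Expected counts gave 0.10 ± 0.13. mt-Co2 had 1431, 1363, 1531 and 1316 CPM of expected counts in WT and 1290, 1316, 1548 and 1166 CPM in KO (log2 fold change -0.06 ± 0.10). By reads, where the gene had 28 to 102 counts, the fold change was -0.48 ± 0.45 and without WT1 it was 0.14. mt-Co3 had 2953, 1860, 2220 and 1952 CPM of expected counts in WT and 2536, 1873, 2308 and 1694 CPM in KO, with WT1 and KO1 highest in their groups (log2 fold change -0.08 ± 0.17; by reads, -0.29 ± 0.34).

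In complex V, mt-Atp6 had 3135, 2594, 3073 and 2713 CPM of expected counts in WT and 2836, 2414, 3263 and 2684 CPM in KO (log2 fold change -0.02 ± 0.12). mt-Atp8, whose values depend on how the 43 shared bases are divided, had 603, 523, 499 and 353 CPM of expected counts in WT and 537, 371, 517 and 225 CPM in KO. WT4 and the library labelled KO4 were the lowest of their groups, and the log2 fold change was -0.24 ± 0.25. By reads the pair summed to 2.76 ± 0.576 CPM in WT and 2.37 ± 0.634 CPM in KO (SD, n = 4), and mt-Atp6 alone had a fold change of -0.16 ± 0.29.

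**Figure D5:**
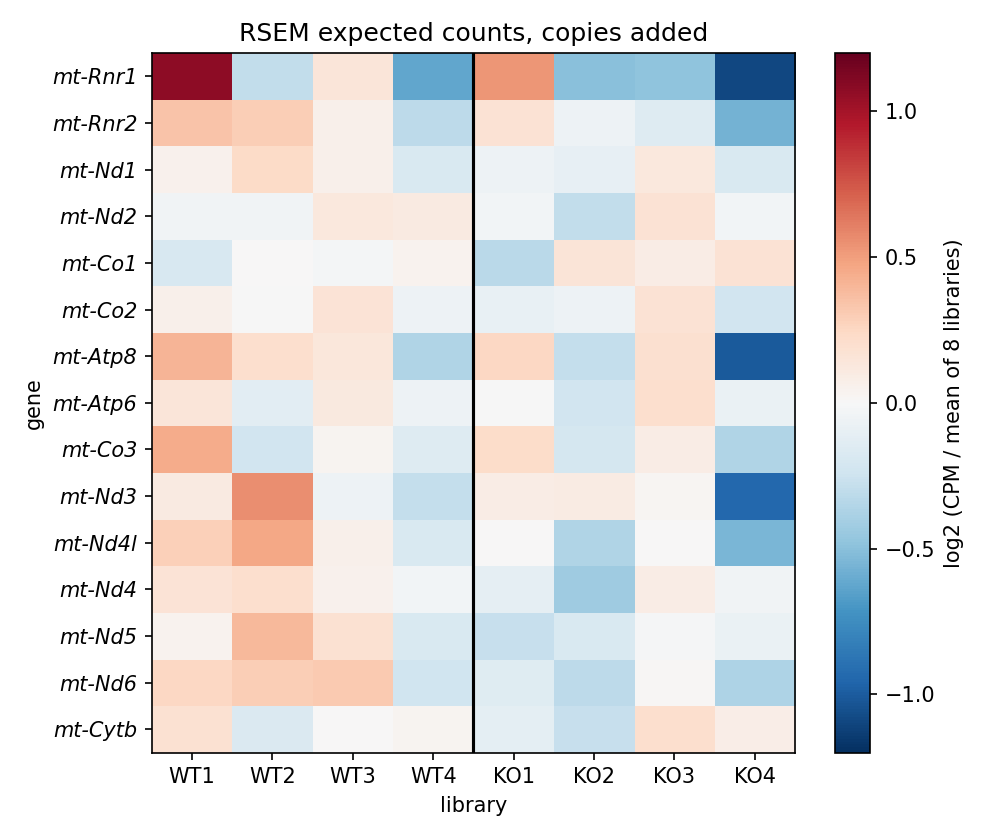
log2 of each library's CPM over the mean of the 8 libraries, for the 2 rRNA and 13 protein-coding genes in map order, from expected counts with the copies added; the line parts WT from KO. mt-Rnr1 is highest in WT1 and KO1. The library labelled KO4 is lowest for mt-Rnr1, mt-Rnr2, mt-Co2, mt-Atp8, mt-Co3, mt-Nd3, mt-Nd4l and mt-Nd6.

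tRNA genes gave few reads, 3523 over all 8 libraries. mt-Tp, the proline tRNA, took 44.8% of them, with 5.59, 4.22, 4.34 and 3.64 CPM in WT and 3.32, 4.6, 4.64 and 4.39 CPM in KO. It is shown whole (chrM:15356-15422, minus strand) because it leads its class, with mt-Ts1, the serine tRNA beside mt-Co1 (chrM:6870-6938, minus strand), for the contrast described below; capitals mark the 3 bases opposite the end of mt-Co1:
mt-Tp: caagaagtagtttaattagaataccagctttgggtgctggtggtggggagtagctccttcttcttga
mt-Ts1: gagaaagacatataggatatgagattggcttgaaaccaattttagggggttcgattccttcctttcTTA

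The 5 tRNA genes that followed mt-Tp were mt-Tc, mt-Tq, mt-Tl1, mt-Tn and mt-Ta, the tRNAs of cysteine, glutamine, leucine, asparagine and alanine, with means of 1.21, 1.02, 0.877, 0.683 and 0.435 CPM over the 8 libraries. Of these leading 6 genes, 5 lie on the minus strand, which holds 8 of the 22 tRNA genes and took 83.9% of tRNA reads. The library kit does not mark strand, so this is the strand of the gene and not of the RNA. mt-Tc had 0.29, 1.97, 0.932 and 1.14 CPM in WT and 0.636, 2.16, 0.935 and 1.59 CPM in KO, and WT1 and KO1 were the lowest of their groups. mt-Tn had the largest fold change of these 6 genes, 0.72 ± 0.59 on the log2 scale (0.45 without KO2 to 1.28 without WT4), from 0.232, 0.583, 0.257 and 0.967 CPM in WT and 0.276, 1.31, 0.603 and 1.23 CPM in KO.

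The remaining values of the 6 were closer to 0 fold change relative to their errors. mt-Tq had 0.492, 0.724, 0.868 and 1.62 CPM in WT and 0.83, 1.31, 0.452 and 1.85 CPM in KO (log2 fold change 0.27 ± 0.50). mt-Tl1 had 0.232, 1.09, 0.804 and 1.27 CPM in WT and 0.608, 0.884, 0.935 and 1.2 CPM in KO (0.11 ± 0.47). mt-Ta had 0.0579, 0.362, 0.514 and 0.545 CPM in WT and 0.138, 0.731, 0.422 and 0.707 CPM in KO (0.45 ± 0.64). The estimates for mt-Tc and mt-Tp were 0.31 ± 0.54 and -0.04 ± 0.22. Each of the other 16 tRNA genes was below 1 CPM in every library, with a highest mean of 0.212 CPM, and mt-Tg and mt-Th had no read in any library, which allows up to 0.00808 CPM over the 371243768 counts of the 8 libraries.

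The 2 countings ranked the tRNA genes differently. mt-Ts1 had 5.39, 4.64, 6.04 and 3.37 CPM of expected counts in WT and 7.29, 5.15, 3.5 and 1.75 CPM in KO, and at most 0.0579 CPM by featureCounts. mt-Tp, first by reads, had 0 expected counts in 6 of the 8 libraries and at most 0.235 CPM in the others. Reads that overlap 2 genes are left out under featureCounts defaults, while RSEM assigns fragments to transcripts. Whether this accounts for the few reads of mt-Ts1, which overlaps mt-Co1, was not tested. mt-Tp shares no bases with another mitochondrial gene, and why it had reads but hardly any expected counts was not tested either.

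Nuclear genes that make and use mitochondrial RNA were read from 5 lists, and edgeR called 0 of their 174 tested members (adjusted p = 0.999 for each gene named below; background 0% of 16352 genes). The list of mitochondrial DNA transcription and replication had 20 of 20 genes tested, 13 with a higher and 7 with a lower estimate in KO (median log2 fold change 0.03, beside 0.01 and 51.7% higher over all genes). RSEM expected counts gave 9 higher and 11 lower (median -0.03). Its smallest p belonged to Mterf1a, a transcription termination factor, at 5.2 ± 0.851 CPM in WT and 6.99 ± 1.92 in KO (SD, n = 4; log2 fold change 0.45 ± 0.24), followed by Polg, the DNA polymerase gamma subunit, at -0.24 ± 0.16 and Ssbp1, a single-stranded DNA binding protein, at 0.13 ± 0.09. The list of RNA processing and stability had 20 tested, 9 higher and 11 lower (median -0.01), and 13 higher and 7 lower with RSEM (median 0.03). Fastk, whose mitochondrial form is known to be needed for the mt-Nd6 messenger RNA, had 65.1, 70.7, 57.4 and 46.8 CPM in WT and 55.1, 47.0, 48.2 and 41.5 CPM in KO (log2 fold change -0.29 ± 0.13, edgeR unadjusted p = 0.0475), while Hsd17b10, a subunit of mitochondrial RNase P, was at 0.16 ± 0.10 and Fastkd3 at 0.17 ± 0.10.

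The list of tRNA modification and charging had 33 tested, 18 higher and 15 lower (median 0.01). Cdk5rap1, a tRNA-modifying methylthiotransferase, had 44.5, 49.7, 17.6 and 35.0 CPM in WT and 21.4, 21.8, 18.1 and 30.7 CPM in KO (log2 fold change -0.65 ± 0.28, edgeR unadjusted p = 0.0436), with WT3 below all KO libraries. Pus1, a pseudouridine synthase, was at -0.16 ± 0.10 and Nsun2, an RNA methyltransferase, at -0.43 ± 0.29. The list of translation factors had 24 tested, 19 higher and 5 lower (median 0.07), but 13 higher and 11 lower in the 5 libraries with Xist (median 0.03) and 15 higher and 9 lower without KO2, without KO4 or in the 5 shallower libraries. Its genes of smallest p were Ngrn at 0.20 ± 0.13, the rRNA methyltransferase Mrm1 at -0.15 ± 0.10 and the ribosome assembly GTPase Eral1 at 0.15 ± 0.10. Of 77 tested mitochondrial ribosomal protein genes, 66 had a higher and 11 a lower estimate (median 0.08), beside 51.7% higher and a median of 0.01 over all genes. None had an unadjusted edgeR p under 0.05, beside 1.97% of all genes. These genes were read in the same libraries, so their directions are not independent of each other. The 3 with the smallest p were Mrpl18 at 0.17 ± 0.09, Mrpl13 at 0.18 ± 0.09 and Mrpl49 at 0.16 ± 0.09. With library size in place of TMM scaling, 61 were higher and 16 lower, beside 44.8% of all genes higher. Without WT2 it was 50 higher and 28 lower, and without KO4 it was 72 higher and 6 lower. The 5 libraries with Xist gave 52 higher and 26 lower (median 0.02), and RSEM expected counts gave 59 higher and 19 lower (median 0.06).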

How the data were processed

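RNA-seq was analysed in 8 libraries, 4 per genotype. Per the labels' protocols, 200 ng of total RNA (RNeasy micro kit) went into the NEBNext Single Cell/Low Input kit, which primes cDNA at poly(A) tails and does not mark strand. The authors deposited whole-number read counts per gene, made with featureCounts 1.6.4 per the file headers; the command line there shows only annotation, output and 4 threads, so its defaults held (both strands, mates counted singly, reads of several places or genes left out). Expected counts from RSEM, which estimate fragments per gene, were deposited too. Per the submitters' processing notes, STAR 2.6.0a, Picard 2.19, RSEM 1.3.1 and build mm10 were used, whereas the annotation path in the file headers names GRCm39. Symbols were matched for 52093 of 53647 identifiers.

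CPM and shares were computed from total counts without further scaling. Fold changes came from edgeR 4.0.16 (R 4.3.3) on all genes, with TMM scaling, filterByExpr, the quasi-likelihood F test and Benjamini-Hochberg adjustment at 0.05, and the fit was tested on simulated data. Expected counts were rounded for the fits. Shares and ratios were tested by exact permutation of 8 libraries. Nuclear copies were sought among GENCODE M21 transcripts with BLAST 2.17.0. Alternatives included DESeq2 1.42.0 and limma 3.58.1; adding the copies to the expected counts was chosen after seeing the data. Counts of 0 are limited at 3 counts, for counting error only. The rule named both rRNA and all protein-coding genes, the 6 tRNA genes of highest mean CPM and 3 genes of smallest p per nuclear list; members and lists were chosen with earlier results of these data known. Of the list symbols, Prorp and Mtrfr were not matched. Samples were grouped by title and genotype label. The labels do not pair the libraries. Over the genes fitted, same-numbered libraries did not all deviate together from their group means (correlations 0.36, 0.31, -0.03 and 0.12), so the main tests used no pairing. The rRNA share and the rRNA to protein-coding ratio did follow the library number in both groups.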

Additional observations from a re-analysis of the deposited data

Results flagged for a closer look

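In 9 of 94 groups of 4 libraries tested, 1 library lay farther from the other 3 than the critical value of Dixon's test allows; chance flags about 1 in 20 groups. By featureCounts these were mt-Co2 in WT1 at 2.95 CPM, mt-Atp8 in KO2 at 0.335 CPM, mt-Co3 in the library labelled KO4 at 0.977 CPM, mt-Nd4l in KO2 at 0 CPM and mt-Nd6 in KO3 at 120 CPM. In expected counts with the copies added they were mt-Nd3 in the library labelled KO4 at 20.3 CPM and mt-Nd6 in WT4 at 80.5 CPM.

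For 2 of the chromosome 1 copies a single library stood far above all 7 others by featureCounts. Gm28661, the copy of mt-Co2, had 14.7 CPM in KO1, or 531 reads, and 0.782 to 1.64 CPM in the other libraries. Gm29216, the copy of the end of mt-Co1, had 8.1 CPM in WT3, or 252 reads, and 0.774 to 1.8 CPM in the others. Neither library stood apart for the mitochondrial gene, since mt-Co2 had 1.22 CPM in KO1 and mt-Co1 had 1223 CPM in WT3.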

How the results depend on the processing

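No comparison passed its threshold in any alternative, and 618 of 658 alternative values were not reversed. The 658 include counts of genes past the threshold, which have no direction to reverse, and settings that differ little from the fit as reported. Adjusted p of a mitochondrial gene was lowest for mt-Nd6 with WT4 and KO4 both left out (0.422), where 12 genes were called in all, each lower in KO and none mitochondrial. Of the 40 reversals, 21 came from leaving out 1 library; the cause of the others was not tested. The tRNA share difference was -0.000102 percentage points with RSEM expected counts, with or without the copies added. The protein-coding share difference was 0.000514 in the 5 libraries with Xist. The mt-Nd2 log2 fold change, 0.00 in the fit as reported, was -0.00 with RLE, DESeq2 or the replicate block, -0.02 with library size alone, -0.01 without a filter or with a mean of at least 1 CPM, and -0.06 with RSEM (also with copies added) or Xist as covariate. Others were mt-Atp6 at 0.00 with RSEM, mt-Nd3 at 0.03 without a filter, mt-Nd4l at 0.13 without a filter, 0.15 with DESeq2 and 0.43 with RSEM before the copies were added, mt-Cytb at 0.02 with limma-voom, and mt-Tq at -0.07 in the libraries with Xist.

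Leaving out 1 library at a time gave these ranges: total share difference -0.0679 to -0.025, rRNA share -0.0519 to -0.0157, rRNA to protein-coding ratio -0.0831 (without KO1) to -0.00567 (without KO4), median log2 fold change of the protein-coding genes -0.26 (without KO3) to -0.08 (without WT1 or KO2), protein-coding share difference -0.0329 to 0.00859, tRNA share -1.08e-05 to 0.00018, log2 ratio of mt-Rnr2 to mt-Rnr1 -0.0318 to 0.414, and log2 fold changes of -0.81 to 0.01 for mt-Rnr1, 0.09 to 0.31 for mt-Co1, -0.08 to 0.08 for mt-Nd2, -0.67 to 0.14 for mt-Co2, -0.09 to 0.07 for mt-Cytb, -0.10 to 0.09 for mt-Tp, -0.01 to 0.74 for mt-Tc, -0.10 to 0.75 for mt-Tq and -0.20 to 0.41 for mt-Tl1. The ends of the total and rRNA share differences came without WT4 and without WT1. The upper end came without WT1 for mt-Rnr1 and mt-Co2 and without KO1 for mt-Co1; the lower end came without KO1 for mt-Rnr1 and without KO4 for mt-Co1.

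With the replicate number as a block, which the design does not give, edgeR called 0 mitochondrial genes; mt-Rnr1 was -0.40 ± 0.10 (unadjusted p = 0.00267, adjusted p = 0.936). The rRNA share and the rRNA to protein-coding ratio were lower in KO in 4 of 4 same-numbered pairs (exact sign-flip permutation p = 0.125 for each, the smallest that 16 sign flips allow), with mean differences of -0.0328 percentage points and -0.0418. Without a filter on low counts, tRNA genes of few reads had wide errors, such as log2 fold changes of -1.62 ± 1.35 for mt-Te and 1.56 ± 1.67 for mt-Tl2.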
